A study of Mus musculus with 56 samples.

Results

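Colon tumor cells with little Mki67 and Top2a were compared by their level of Prox1, the gene of a homeobox transcription factor. The comparison held 21 of the 50 cells of the series, 13 with Prox1 at 20 TPM or more (Prox1-high) and 8 with Prox1 below 10 TPM (Prox1-low). TPM is a share of all transcripts in a cell, scaled for transcript length and written on a fixed total. A cell counted as outside the cycle when Mki67 and Top2a, which dividing cells express, were each below 1 TPM. That limit did not use S phase genes, and 1 of the Prox1-low cells carried many of them. The cells were therefore selected by their Prox1, Mki67 and Top2a values in the same libraries that gave every other value, and the differences below are a description with no test. All cells came from 1 mouse, and no p-value or standard error can be given for a difference between mice.

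The mouse was a male of 12 weeks that carried ApcMin/+, a heterozygous truncating allele of Apc, the tumor suppressor that holds the Wnt pathway in check. It had received 2% dextran sulfate sodium (DSS), an agent that injures the colon lining, in its water for 5 days from 10 weeks of age. Its 3 tumors were digested and mixed, so the tumor of origin of a cell is unknown. Single cells negative for DAPI, Cd31 and Cd45 and positive for Epcam and Cd24 were sorted, made into cDNA by Bead-seq, and sequenced only if Lgr5, a Wnt target that marks crypt stem cells, was seen by PCR of 32 cycles. Prox1-high and Prox1-low cells shared the genotype, the DSS, the sort and the Lgr5 selection. No cell from a normal colon was analysed here.

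PROX1 is best known from lymphatic endothelium, where it sets cell identity, and from the developing liver, lens and nervous system. In the intestine it is found in enteroendocrine cells and is switched on in adenomas as a target of beta-catenin and TCF. The study's title ties PROX1 to quiescent stem cells of colon cancer. Wnt signalling induces its own inhibitors, among them NOTUM, which removes a lipid from secreted Wnt, NKD1 and AXIN2, which act inside the cell, and WIF1, which binds Wnt outside it.

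Prox1 (chr1:190118035-190170714, minus strand, GRCm38) ranged from 20.03 to 48.4 TPM in the 13 Prox1-high cells, with a median of 37.7 TPM. In the 8 Prox1-low cells it was listed at 0, 0.06, 0.35, 0.44, 0.72, 1.39, 1.43 and 9.03 TPM. The Prox1-high cell nearest the upper limit had 20.03 TPM and the nearest cell left out had 18.6 TPM. At the lower limit the cell inside had 9.03 TPM and the nearest cell left out had 10.03 TPM. Another 7 cells outside the cycle lay between the limits, and 22 cells had Mki67 or Top2a at 1 TPM or more. Of those 22 cycling cells, 6 had Prox1 at 20 TPM or more and 12 had Prox1 below 10 TPM. Prox1 overlaps an annotated antisense gene, Prox1os, and reads of the pair could be told apart only if the authors counted by strand, which no source here states.

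Of the 8 Prox1-low cells, 3 stood apart from all others outside the cycle. Cells are named by their i7 and i5 index. Cell N708-N503 had 1316 genes at 1 TPM or more, and 85.1% of its TPM fell on the predicted gene Gm10925. Cell N707-N503, the cell with 9.03 TPM of Prox1, had 3151 genes. Cell N704-N517 had 3935 genes, and 76.0% of its TPM fell on defensin genes, which Paneth cells of the small intestine express. The 13 Prox1-high cells had 4940 to 6477 genes and the other 5 Prox1-low cells had 5138 to 6155. Each result is therefore given against all 8 Prox1-low cells and against the 5 without those 3. The median difference over all genes was 0.54 on the log2 scale against 8 cells and 0.05 against 5, so the first scale is shifted upwards. A value listed at 0 can be a failed estimate or a gene that is not expressed. Of 93 ribosomal protein genes, 4 to 9 were listed at 0 in Prox1-high cells and 4 to 10 in the 5 Prox1-low cells. Of those 93, 88 passed the filter on level and 2 were below 1 TPM in all cells, so the zeros do not settle which it was.

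**Figure D1:**
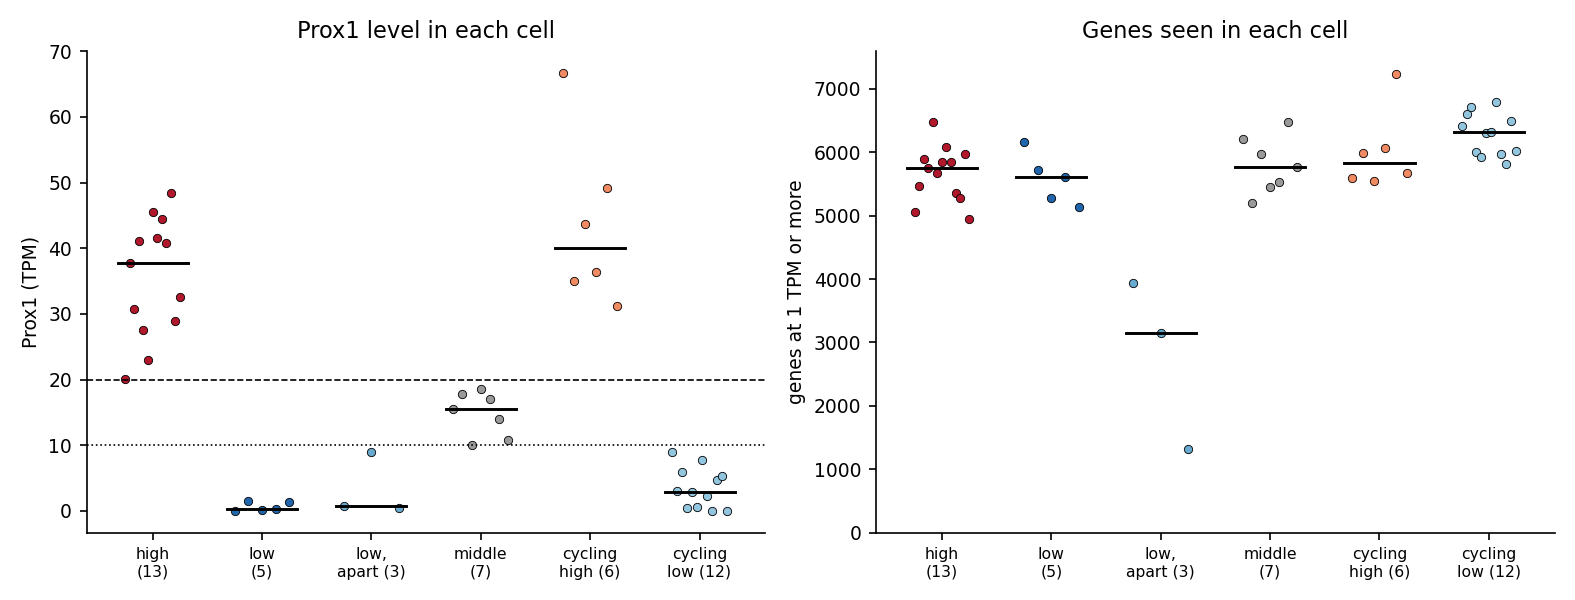
Prox1 in TPM (left, dashed line at 20 TPM and dotted line at 10 TPM) and the number of genes at 1 TPM or more (right) in each cell, with 1 point per cell and a bar at the group median. The 3 Prox1-low cells set apart have 1316, 3151 and 3935 genes, below every Prox1-high cell.

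The index wells also differed between the groups. All 13 Prox1-high cells carried i7 indexes N704 to N707, as did 5 of the 8 Prox1-low cells. Among the 5 Prox1-low cells, 4 carried i5 N508 and 1 carried N507, against 1 and 2 of the 13 Prox1-high cells. Within i5 N507 and N508 alone, 3 Prox1-high cells could be set against those 5. There 14 of the 15 highest genes described below were higher by 1 or more, and 13 of the 15 lowest were lower by as much. Those cells had also ranked the genes, and the choice required the same sign within i5 N506 to N517, which holds N507 and N508. The counts are therefore no separate check on the index wells. Over all genes the median difference there was -0.097. More genes differed by 1 or more in either direction there than with all 13 Prox1-high cells against the same 5. The labels do not say what an index row or column shared beyond the index.

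The sort genes matched the gate in the ordinary cells. Epcam ranged from 158 to 721 TPM in Prox1-high cells and from 302 to 566 TPM in the 5 Prox1-low cells. It was at 14.3, 30.3 and 277 TPM in the 3 cells set apart. Ptprc and Pecam1, the genes of the Cd45 and Cd31 antigens, were below 1 TPM in all 21 cells, and 0 of 6 endothelial and 0 of 6 lymphatic endothelial marker genes passed the filter on level. Lgr5 differed by -0.03 against the 5, at 0.88 to 15.1 TPM with a median of 2.37 TPM in Prox1-high cells and at 0.14, 1.64, 5.27, 6.76 and 10.3 TPM in the 5 Prox1-low cells.

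Of 9166 genes at 1 TPM or more in 20% of the 50 cells, 2779 (30.3%) had a mean log2(TPM + 1) higher by 1 or more in Prox1-high cells than in all 8 Prox1-low cells, and 405 (4.42%) had a mean lower by 1 or more. Against the 5 Prox1-low cells the counts were 1378 higher (15%) and 1179 lower (12.9%). A difference of 1 on this scale is a factor of 2 for well-expressed genes and less for low ones. Groups that did not overlap were rare. Higher in every Prox1-high cell than in any of the 8 Prox1-low cells were 3 genes (0.0327%), which were Prox1 itself, Ptn and Tecr. No gene (0%) was lower in every Prox1-high cell than in any of the 8. Against the 5, R3hdm1 joined those 3 to make 4 genes (0.0436%), and Dkk2 was the 1 gene (0.0109%) on the lower side. Some of the 5 had Dkk2 well below 1 TPM, so its separation rested on values near the floor. These genes are named because their cells did not overlap, a choice made after their values were seen.

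Ptn encodes pleiotrophin, a secreted heparin-binding growth factor. It lay between 6.17 and 55.1 TPM with a median of 27.5 TPM in Prox1-high cells. In the 5 Prox1-low cells it was at 0.04, 0.11, 0.71, 4.76 and 5.45 TPM, and it was listed at 0 in the 3 cells set apart. Tecr, an enzyme of very long chain fatty acid synthesis, lay between 58.4 and 128 TPM in Prox1-high cells. The 5 Prox1-low cells had 0.79, 16.4, 19.3, 31.6 and 34.4 TPM. In cycling cells, which had no part in the choice, Ptn had a median of 18.1 TPM with Prox1 high and 1.51 TPM with Prox1 low. Tecr there had medians of 63.9 and 42.1 TPM, and its ranges overlapped.

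First of the 15 highest genes was Mt3, a metallothionein. Metallothioneins are small cysteine-rich proteins that bind zinc and copper, and Mt3 is best known from the brain. Mt3 (chr8:94152607-94154146) was at 1 TPM or more in 11 of 13 Prox1-high cells, with a median of 252 TPM and a highest value of 4224 TPM. In the Prox1-low cells it was listed at 0 in 7 of 8 and at 1.95 TPM in the eighth. The difference in mean log2(TPM + 1) was 7.05 against 8 cells and 6.94 against 5. The SD over the Prox1-high cells was 4.39, and 2 of them were listed at 0. Cells with intermediate Prox1 had a median of 5.42 TPM and a highest value of 451 TPM, and 4 of 7 reached 1 TPM.

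Mt3, Mt2 and Mt1 lie within 27.7 kb of chromosome 8, and their differences were unequal. Mt2 ranged from 115 to 2739 TPM in Prox1-high cells and was at 0, 1.79, 405, 785 and 1955 TPM in the 5 Prox1-low cells, a difference of 2.93. Mt1 ranged from 19.8 to 3435 TPM against 4.09, 619, 649, 797 and 1951 TPM, a difference of 0.89 within the spread of its cells. The zinc importer gene Slc39a4 went the other way. It had a median of 44.6 TPM in Prox1-high cells and was at 77.1, 233, 264, 345 and 472 TPM in the 5 Prox1-low cells, a difference of -3.81. The zinc exporter gene Slc30a1 had a median of 0 in Prox1-high cells and was at 0, 12.7, 18.7, 36.9 and 58.2 TPM in those 5.

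The promoters of the 3 metallothionein genes are shown because the genes lie side by side and differ in size of difference. They are RefSeq sequences of GRCm38.p6, all on the plus strand, 300 bases from 250 before to 50 after the annotated start. They lie at chr8:94152357-94152656 for Mt3, chr8:94172368-94172667 for Mt2 and chr8:94178839-94179138 for Mt1. Capitals mark the core of the metal response element, searched as TGCACNC or TGCGCNC on both strands. This motif was added after the values of Mt3 were seen.
Mt3: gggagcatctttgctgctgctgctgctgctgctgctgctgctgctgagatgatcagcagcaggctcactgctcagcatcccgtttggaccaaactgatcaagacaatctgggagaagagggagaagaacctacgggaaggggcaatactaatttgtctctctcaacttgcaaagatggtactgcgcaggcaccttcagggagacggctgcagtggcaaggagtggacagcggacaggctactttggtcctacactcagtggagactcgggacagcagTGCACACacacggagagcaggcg
Mt2: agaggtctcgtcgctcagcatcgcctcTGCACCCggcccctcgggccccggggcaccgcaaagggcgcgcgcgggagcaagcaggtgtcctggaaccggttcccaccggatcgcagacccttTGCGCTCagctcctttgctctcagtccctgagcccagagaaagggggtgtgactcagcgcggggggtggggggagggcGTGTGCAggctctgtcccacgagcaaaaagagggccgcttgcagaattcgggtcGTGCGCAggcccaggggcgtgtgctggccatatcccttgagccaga
Mt1: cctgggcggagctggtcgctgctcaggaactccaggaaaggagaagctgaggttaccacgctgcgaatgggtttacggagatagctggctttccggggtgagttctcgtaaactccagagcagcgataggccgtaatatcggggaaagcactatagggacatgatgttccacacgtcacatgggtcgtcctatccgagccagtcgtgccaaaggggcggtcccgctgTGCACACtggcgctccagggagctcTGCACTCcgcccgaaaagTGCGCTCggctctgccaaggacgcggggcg
Mt3 held 1 match, Mt2 held 4 and Mt1 held 3. The same core was found in the promoter of 28.2% of 27025 genes in the table and of 41.1% of the 7242 tested genes with a promoter there. Among genes higher in Prox1-high cells against 5 the share was 41.2%, and among genes lower it was 37.7%. A match describes letters in a window and no binding.

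Ifitm1, an interferon-induced transmembrane protein gene, came next. Ifitm1 (chr7:140967221-140969825) was between 693 and 9896 TPM in all 13 Prox1-high cells, with a median of 2809.7 TPM. In the 5 Prox1-low cells it split, at 0, 0.97 and 130.03 TPM in 3 and at 1678 and 3530.4 TPM in the other 2. It was at 0, 3.4 and 11.8 TPM in the cells set apart. The difference was 6.62 against 8 cells and 5.05 against 5, and 2 of the 5 reached the range of the Prox1-high cells. Its neighbour in the same family, Ifitm3, differed by 1.04 against 5. In the list of MHC class I and interferon genes, 4 of 7 that passed the filter were higher against 8, beside 30.3% of all genes. Against 5, 2 of 7 were higher, beside 15%, and none was lower in either comparison.

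Gdf11, a secreted TGF-beta family ligand that acts in axial patterning of the embryo, was near 0 in every Prox1-low cell. Gdf11 (chr10:128882295-128891718) reached 1 TPM in 10 of 13 Prox1-high cells, with a median of 91.2 TPM and a highest value of 821 TPM. Among the 5 Prox1-low cells it was at 0.17, 0.26, 0.89, 1.16 and 2.61 TPM. The difference was 4.82 against 5 cells. In cycling cells 2 of 6 with Prox1 high reached 1 TPM and 1 of 12 with Prox1 low.

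Hoxa13, a homeobox factor of the hindgut and genital tubercle, was at 1 TPM or more in 12 of 13 Prox1-high cells with a median of 115 TPM. It was at 0, 0, 0.96, 28.1 and 93.8 TPM in the 5 Prox1-low cells, a difference of 3.66. Evx1os, an antisense transcript of the homeobox gene Evx1, lies 47.5 kb from Hoxa13 on chromosome 6. It had a median of 71.6 TPM in Prox1-high cells, and in the 5 Prox1-low cells it was seen only in 1, at 14.7 TPM. Evx1 overlaps it on the other strand, and reads of the pair cannot be told apart without strand.

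Vim encodes vimentin, an intermediate filament protein of mesenchymal cells that some tumor cells express. It had a median of 1732 TPM in Prox1-high cells, from 4.02 to 3011 TPM. In the 5 Prox1-low cells it was at 67.8, 261, 451, 494 and 666 TPM, and in the 3 cells set apart at 0, 0.23 and 0.78 TPM. Its difference of 4.75 against 8 therefore became 1.79 against 5, and within i5 N507 and N508 it was -0.001. In cycling cells Vim had medians of 323 TPM with Prox1 high and 40.8 TPM with Prox1 low. Of the other EMT factors on the list, Fn1 alone passed the filter, and it was 1.10 lower in mean log2(TPM + 1) against 5.

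The rest of the 15 highest were Ccdc85b, 2900076A07Rik, BC002163, Tmub2, Dcxr, Zc3h10, Slc25a4, Sdhaf1 and 2010320M18Rik. Ccdc85b reached 1 TPM in 11 of 13 Prox1-high cells with a median of 258 TPM and in 1 of 8 Prox1-low cells, at 37.1 TPM. It overlaps Fosl1 on the opposite strand, and Fosl1 itself differed by -2.92 against 5. BC002163 is a processed pseudogene inside Zbtb20, and reads could come from its parent gene. Slc25a4, the mitochondrial ATP and ADP exchanger, rested most on the cells set apart, with a difference of 4.23 against 8 and 1.54 against 5. Across all 15 the difference ran from 4.11 to 7.05 against 8 and from 1.54 to 6.94 against 5.

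**Figure D2:**
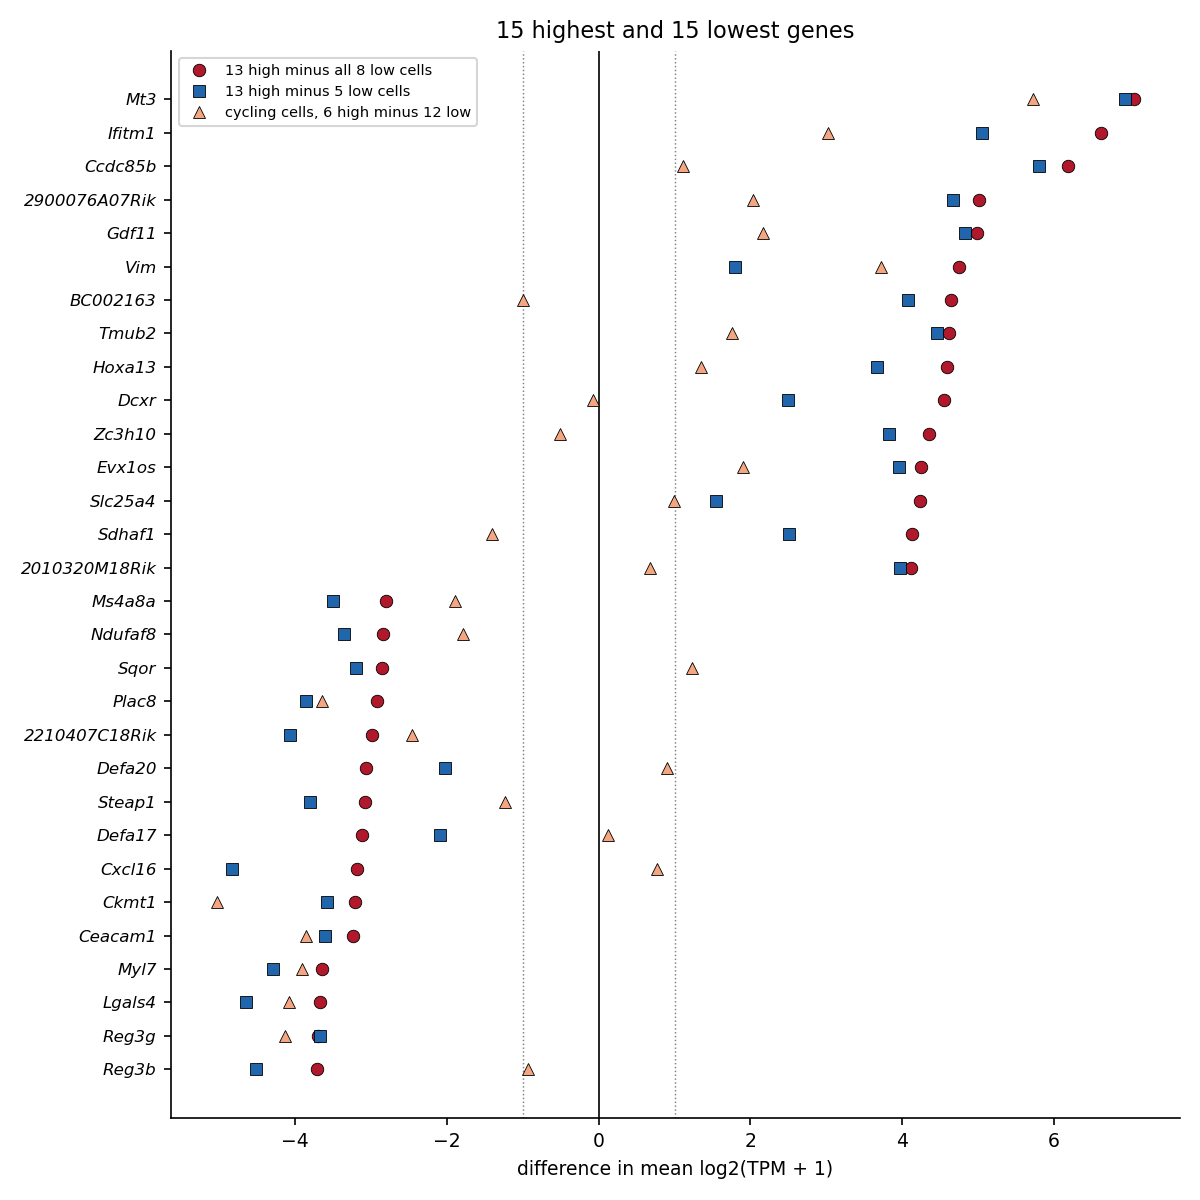
Difference in mean log2(TPM + 1) for the 15 genes highest and the 15 lowest in Prox1-high cells, against all 8 Prox1-low cells (circles), against 5 (squares) and between cycling cells of high and low Prox1 (triangles). Dotted lines mark 1 and -1. In cycling cells 9 of the 15 highest stay at 1 or more and 10 of the 15 lowest at -1 or less.

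Among the 15 lowest genes was Lgals4. Lgals4, a galectin of the intestinal epithelium (chr7:28833854-28841708), had a median of 9.62 TPM in Prox1-high cells, and 94.9 TPM was its highest value. The 5 Prox1-low cells had 15.1, 106, 448, 487 and 743 TPM. Only the lowest of those 5 lay within the range of the Prox1-high cells. The difference was -3.68 against 8 cells and -4.64 against 5. In cycling cells the medians were 27.4 TPM with Prox1 high and 540.3 TPM with Prox1 low, and every one of the 12 Prox1-low cells was at 142 TPM or more.

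Reg3g and Reg3b are C-type lectins that intestinal epithelium secretes against bacteria, and both lie on chromosome 6. Reg3g (chr6:78466269-78468872) had a median of 0.49 TPM in Prox1-high cells with a highest value of 846 TPM. The 5 Prox1-low cells split, at 0 in 2 of them and at 564, 1235 and 1799 TPM in the others. The difference was -3.67 against 5. Reg3b had a highest value of 13.7 TPM in Prox1-high cells and was at 0, 1.01, 102, 421 and 809 TPM in the 5 Prox1-low cells, a difference of -4.51. Cycling cells had medians of 4.29 and 282 TPM for Reg3g but of 66.1 and 95.4 TPM for Reg3b.

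Ckmt1, mitochondrial creatine kinase, had a median of 0 TPM in Prox1-high cells. Where it was seen there, it was at 12.1, 34.7, 76.5 and 139 TPM, within the range of the 5. Levels in the 5 Prox1-low cells were 0.84, 7.05, 92.4, 166 and 406 TPM, a difference of -3.58. Plac8 had a median of 0.14 TPM in Prox1-high cells against 6.29, 60.1, 137, 154 and 162 TPM, a difference of -3.85. It reached 1 TPM in 6 of 13 Prox1-high cells, and the highest of them, at 463 TPM, lay above all 5. Ceacam1, a cell adhesion molecule, was seen in 1 of 13 Prox1-high cells, at 93.5 TPM, and in 4 of the 5 Prox1-low cells at 19.7 to 72.3 TPM. In cycling cells with low Prox1 each of Ckmt1, Plac8 and Ceacam1 reached 1 TPM in 11 of 12, and with high Prox1 in 1, 2 and 2 of 6. Their direction in cycling cells was thus the same as outside the cycle.

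Cxcl16, a chemokine, and Sqor, the sulfide oxidising enzyme of mitochondria, went the other way in cycling cells. Cxcl16 had a median of 0 in Prox1-high cells and was at 4.96, 69.2, 155, 293 and 521 TPM in the 5 Prox1-low cells, but in cycling cells the medians were 118 TPM with Prox1 high and 90.8 TPM with Prox1 low. Sqor was at 6.5 to 52.9 TPM in the 5 Prox1-low cells with a median of 0 in Prox1-high cells, and cycling cells with high Prox1 had the higher mean. The rest of the 15 lowest were Myl7, Steap1, 2210407C18Rik, Ndufaf8, Ms4a8a and the defensins Defa17 and Defa20. Defa17 and Defa20 were at 65696 and 88192 TPM in cell N704-N517, and at 504.4 and 445 TPM in cell N707-N508. Both had a median of 0 in Prox1-high cells, and their highest values there were 101 and 344 TPM.

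**Figure D3:**
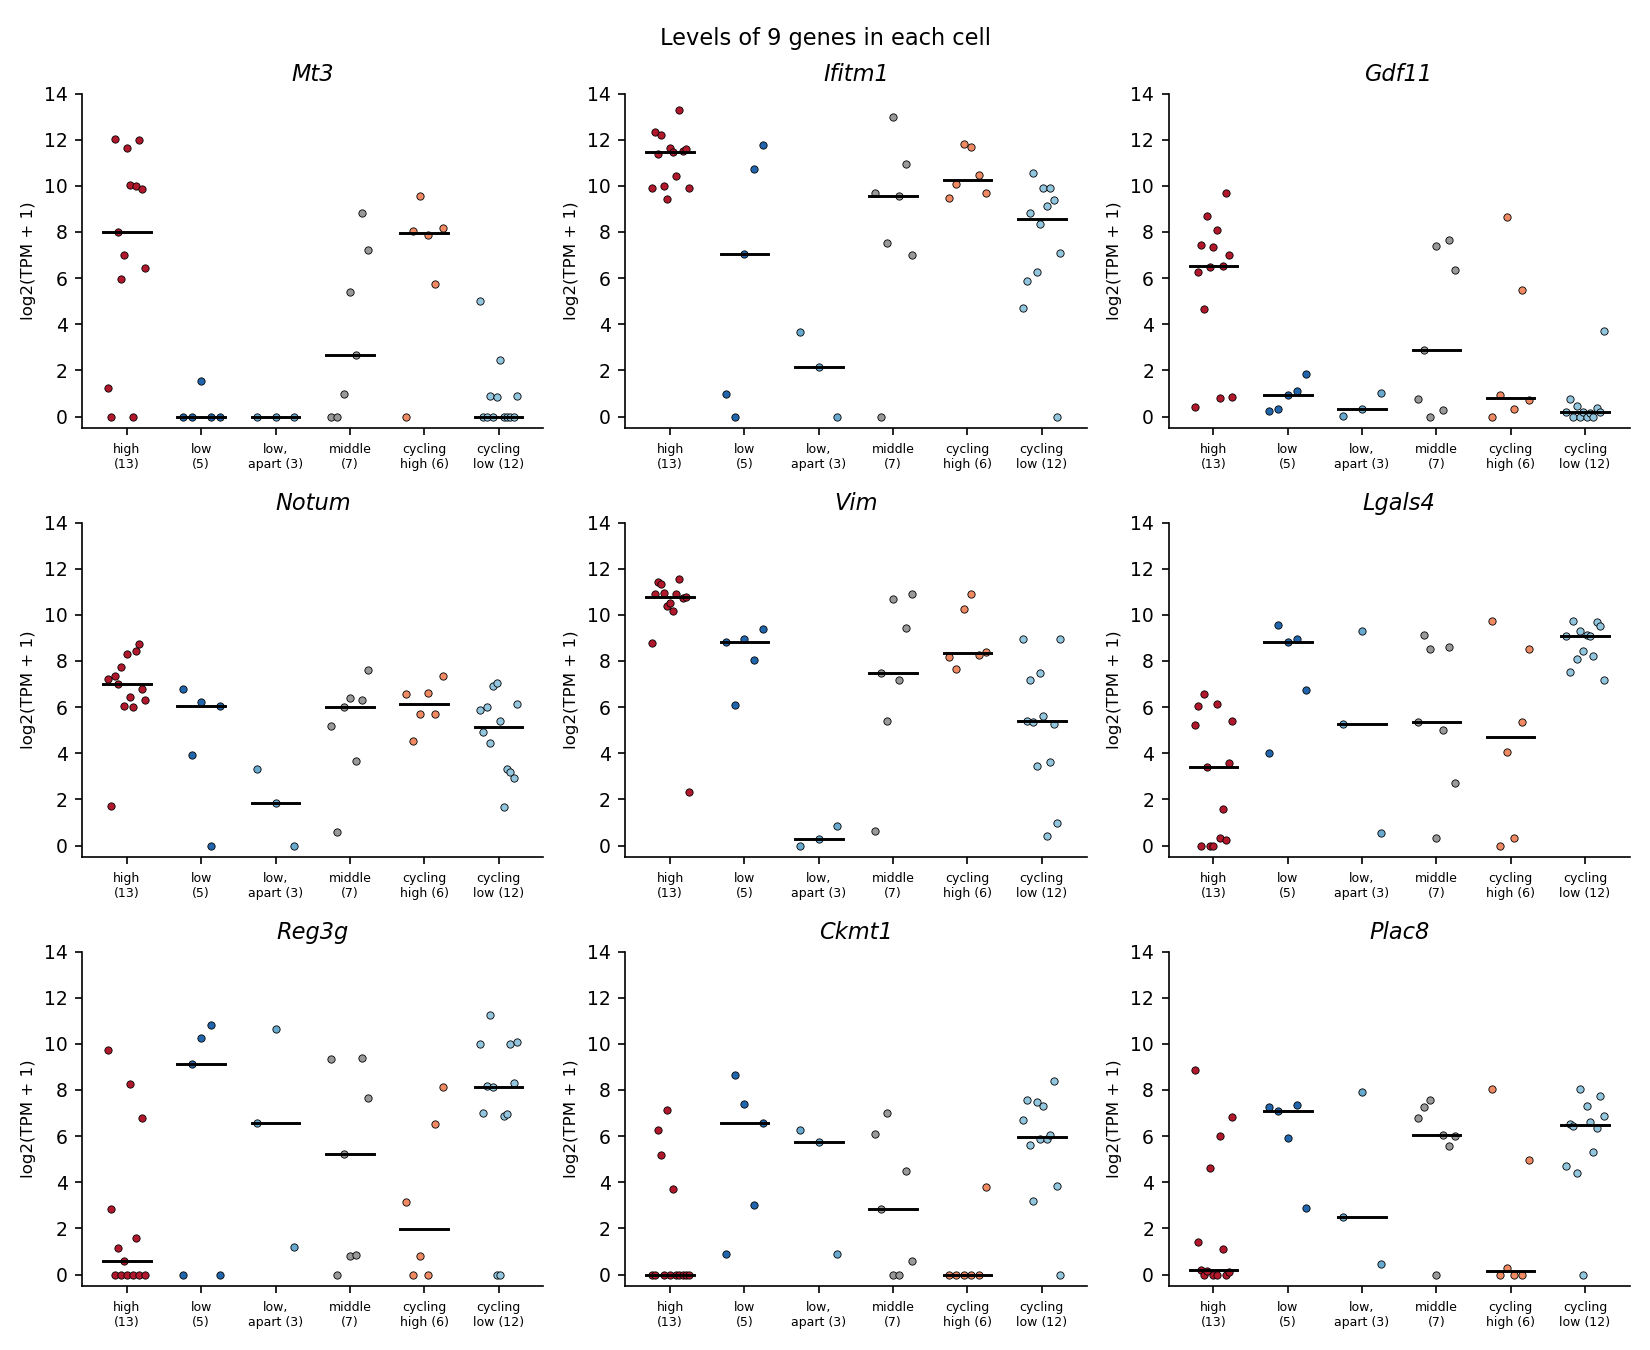
Level of 9 genes as log2(TPM + 1) in each cell outside the cycle (high, low, the 3 low cells set apart, middle) and in cycling cells of high and low Prox1, with 1 point per cell and a bar at the median. Lgals4 is at 142 TPM or more in all 12 cycling Prox1-low cells, and Mt3 is listed at 0 in 7 of the 8 Prox1-low cells outside the cycle.

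Inhibitors that the Wnt pathway induces were mostly higher in Prox1-high cells. Of 18 listed genes 9 passed the filter, and 7 of these were higher and 1 lower against 8 cells, beside 30.3% and 4.42% of all genes. Against 5 cells 5 were higher and 1 lower, beside 15% and 12.9%. The median difference over the 9 was 2.10 against 8 and 1.19 against 5, where all genes had 0.54 and 0.05. Within i5 N507 and N508, where all genes had -0.097, it was 0.52 with 3 of the 9 at 1 or more. The mean level over all 18 lay between 1.34 and 2.65 in Prox1-high cells and was 0.72, 1.06, 1.11, 1.5 and 2.06 in the 5 Prox1-low cells, so the ranges overlapped.

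Notum had a median of 128 TPM in Prox1-high cells, from 2.3 to 424 TPM, and was at 0, 14.2, 65.4, 72.8 and 109 TPM in the 5 Prox1-low cells, a difference of 2.18. Nkd1 ranged from 20.6 to 119.5 TPM with a median of 38.5 TPM, against 4.1, 13.9, 23.1, 25.8 and 35 TPM, a difference of 1.19. Axin2, the most used readout of Wnt activity, had a median of 7.36 TPM against 0, 0.1, 0.92, 1.37 and 17.7 TPM, a difference of 2.05. Wif1 had a difference of 0.30 against 5 beside 2.10 against 8. Apcdd1, a membrane inhibitor, and Dkk3, a secreted glycoprotein of the Dickkopf family, were higher by 1.99 and 2.17 against 5. Dkk2, a secreted antagonist that binds the Wnt co-receptors, was the exception. It was listed at 0 in all 13 Prox1-high cells and at 0.05, 0.06, 1.26, 9.47 and 46.4 TPM in the 5 Prox1-low cells.

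Of 18 Wnt ligand genes 3 passed the filter. Against 5, 2 of these were higher and 0 lower, beside 15% and 12.9% of all genes, with a median of 1.62. The filter counted Prox1-high cells too, so a gene seen chiefly there could pass through them. The count higher is therefore no separate support. Within i5 N507 and N508 1 was higher, with a median of 0.63 beside -0.097 for all genes. Wnt10a had a median of 28.4 TPM in Prox1-high cells and reached 430.5 TPM, and it was seen in 8 of 13. It was at 59.1 TPM in 1 of the 5 Prox1-low cells and listed at 0 in 4. Its neighbour on chromosome 1, Wnt6, was seen in 8 of 13 Prox1-high cells with a median of 12.5 TPM and was at 0, 0, 0.22, 2.14 and 80 TPM in the 5. The Prox1-low cell N705-N508 thus held the only high values of Wnt10a and Wnt6 among the 5, and it was also highest there for Notum and Axin2. In cycling cells Wnt6 reached 1 TPM in 5 of 6 with Prox1 high and 1 of 12 with Prox1 low, and Wnt10a in 4 of 6 and 0 of 12.

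Of 13 other genes that Wnt induces, all of which passed the filter, 3 were higher and 1 lower against 8, beside 30.3% and 4.42% of all genes. Against 5, 2 were higher and 3 lower, beside 15% and 12.9% of all genes, so the share higher was near that of all genes. Within i5 N507 and N508, 2 were higher and 5 lower, with a median of -0.42 beside -0.097 for all genes. Tbx3, a T-box factor, had a median of 53.4 TPM and was at 0, 5.96, 12.3, 31.3 and 43.2 TPM in the 5 Prox1-low cells, a difference of 2.21. Tcf7, which binds beta-catenin, was higher by 1.29. Ascl2, a factor of crypt stem cells, was listed at 0 in most Prox1-high cells and reached 1 TPM in 3 of 13, against 0, 7.6, 54.4, 98.5 and 133 TPM, a difference of -2.85. Ccnd1, cyclin D1, was lower by 2.23 in mean log2(TPM + 1) and Ephb3, a receptor that sorts crypt cells, by 1.8. Sp5 differed by 0.77, with values from 0 to 269.8 TPM in Prox1-high cells and 0, 0, 41.4, 244 and 486 TPM in the 5.

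The promoters of Prox1 and Sp5 are shown because the list rests on TCF/LEF factors, whose core was searched as CTTTGAT on both strands and is in capitals. They are RefSeq sequences of GRCm38.p6, at chr1:190170778-190171077 on the minus strand for Prox1 and chr2:70474673-70474972 on the plus strand for Sp5.
Prox1: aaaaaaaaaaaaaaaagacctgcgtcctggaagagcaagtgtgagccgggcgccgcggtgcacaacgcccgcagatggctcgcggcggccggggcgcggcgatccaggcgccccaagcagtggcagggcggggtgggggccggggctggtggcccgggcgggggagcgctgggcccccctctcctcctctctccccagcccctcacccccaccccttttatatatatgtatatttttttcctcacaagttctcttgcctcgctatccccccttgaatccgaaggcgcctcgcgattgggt
Sp5: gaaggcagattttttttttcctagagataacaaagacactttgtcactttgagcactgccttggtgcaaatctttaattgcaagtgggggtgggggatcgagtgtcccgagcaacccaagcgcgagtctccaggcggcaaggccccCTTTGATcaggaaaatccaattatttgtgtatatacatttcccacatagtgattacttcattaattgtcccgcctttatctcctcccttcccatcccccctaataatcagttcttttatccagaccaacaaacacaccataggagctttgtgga
Sp5 held 1 match and the Prox1 window held none, which says nothing of other regions. The core was in 4.29% of all promoters, in 3.13% of tested genes with a promoter, in 3.79% of genes higher against 5 and in 3.19% of genes lower. It was in 2 of 8 Wnt targets and 0 of 10 Wnt feedback inhibitors with a promoter in the table.

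Of 12 crypt stem genes that passed the filter, 0 were higher and 3 lower against 8, beside 30.3% and 4.42% of all genes. Against 5, 0 were higher and 6 lower, beside 15% and 12.9% of all genes. The other 6 differed by less than 1, and the mean level per cell overlapped, at 1.54 to 3.73 in Prox1-high cells and 1.75 to 4.62 in the 5. The median difference was -0.04 against 8, -0.94 against 5 and -1.65 within i5 N507 and N508, where all genes had -0.097. Gkn3 was at 1 TPM or more in 2 of 13 Prox1-high cells and was at 0, 0, 96.8, 317 and 392 TPM in the 5, a difference of -3.34. Igfbp4 ranged from 0.33 to 309.9 TPM in Prox1-high cells and was at 151, 344, 381, 480.2 and 685 TPM in the 5, a difference of -1.82. Cd24a, which was also a sort gene, had a median of 381 TPM against 717, 908, 931, 1066 and 1186 TPM. In cycling cells the median over the list was 0.07.

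CDK inhibitors are proteins that hold cells out of the cycle. All 5 that passed the filter of 7 listed were higher against 8, beside 30.3% of all genes. Against 5, 3 of 5 were higher and 0 lower, beside 15% and 12.9% of all genes. The median difference was 2.17 against 8, 2.31 against 5 and 2.06 within i5 N507 and N508, where 4 were higher and 1 lower. All genes had a median of -0.097 in those wells. Cdkn1a, which encodes p21, had a median of 135 TPM and reached 2762 TPM in Prox1-high cells, and it was at 0.86, 1.23, 11.2, 38.8 and 289 TPM in the 5, a difference of 2.47. Cdkn2b, which encodes p15, was seen in 8 of 13 Prox1-high cells with a median of 40.6 TPM and in 1 of the 5, at 30.4 TPM. Cdkn1c, which encodes p57, was seen in 8 of 13 and reached 577 TPM, against 2.93 TPM in 1 of the 5. The mean level per cell over the 7 overlapped, at 0.06 to 4.34 in Prox1-high cells and 0.60 to 2.00 in the 5. Prox1-high cell N707-N505 had 0 of the 7 at 1 TPM or more. In cycling cells the list median was -0.52, so the direction was not the same there. The group mean of that level was 2.52 in Prox1-high cells, 2.48 in cells with intermediate Prox1 and 2.52 in cycling Prox1-low cells. The level was thus not particular to Prox1-high cells.

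Of 8 p53 targets that passed the filter 5 were higher and 0 lower against 8, beside 30.3% and 4.42% of all genes. Against 5, 4 were higher and 1 lower, beside 15% and 12.9% of all genes. Gadd45a, a growth arrest gene, ranged from 2.97 to 1226 TPM with a median of 367 TPM in Prox1-high cells. It was at 1.49, 1.57, 51.5, 229 and 894 TPM in the 5, a difference of 2.30. Phlda3, an inhibitor of AKT, differed by 1.65, and Plk2, a kinase, by -1.16. The mean level per cell over the 9 listed overlapped, at 2.08 to 4.39 in Prox1-high cells and 1.395 to 3.37 in the 5. Its group mean was 3.31 in Prox1-high cells, 2.45 in the 5 and 3.27 in cells with intermediate Prox1. Cycling cells had 3.11 with Prox1 high and 2.84 with Prox1 low. That level was thus not particular to Prox1-high cells.

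S phase genes separate cells that copy DNA from the rest. Their mean level over 31 genes lay between 0.67 and 1.64 on the log2(TPM + 1) scale in the 13 cells. In the 5 Prox1-low cells it was 0.73, 1.27, 1.48, 1.5 and 4.01. The highest of these, cell N708-N508, had 24 of the 31 S phase genes at 1 TPM or more and only 1 of 31 G2/M genes, and it passed the cycle limits with Mki67 and Top2a listed at 0. The difference in the mean level was -0.22 against 8 cells, -0.71 against 5 and -0.16 without cell N708-N508, so most of it rested on that cell. Against the other 7 of the 8, the sign turned, at 0.17. Of 28 that passed the filter 1 was higher and 4 lower against 8, beside 30.3% and 4.42% of all genes. Against 5, 0 were higher and 9 lower, beside 15% and 12.9% of all genes. Within i5 N507 and N508 1 was higher and 13 lower, but more of all genes were also lower there than against 5. The list median there was -0.91, beside -0.097 for all genes.

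For some replication genes, more of the 5 than that cell lay above the Prox1-high median. Pcna, the sliding clamp, had a median of 48.8 TPM in Prox1-high cells and was at 67.1, 70.8, 131, 238 and 311 TPM in the 5, a difference of -2.13. Tyms, thymidylate synthase, had a median of 0 against 0, 3.69, 27.2, 67.9 and 72.2 TPM. Mcm2, a subunit of the replicative helicase, reached 4.28 TPM in Prox1-high cells and was at 0, 0.17, 7.56, 14.1 and 37.4 TPM in the 5. Mcm5, another subunit, was not among these. Of the 5 it was high in cell N708-N508 alone, at 88.9 TPM, and at 0.16 TPM or less in the other 4. Of 18 G2/M genes 0 were higher and 1 lower against 5, beside 15% and 12.9% of all genes, with a median of -0.04.

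The promoter of Mcm6, a helicase subunit that differed by -1.70 against 5, is shown for the E2F motifs that S phase genes carry. These were searched as TTTCCCGC or TTTGGCGC on both strands and are in capitals. The window is RefSeq, GRCm38.p6, chr1:128359656-128359955, minus strand.
Mcm6: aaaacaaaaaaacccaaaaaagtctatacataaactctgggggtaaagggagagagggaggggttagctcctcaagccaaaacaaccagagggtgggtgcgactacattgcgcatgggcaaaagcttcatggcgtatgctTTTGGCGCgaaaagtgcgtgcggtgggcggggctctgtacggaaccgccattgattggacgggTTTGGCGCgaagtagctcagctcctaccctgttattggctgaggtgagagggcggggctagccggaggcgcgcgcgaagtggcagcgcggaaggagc
It held 2 matches. A match was found in 8 of 21 S phase genes with a promoter in the table (38.1%), in 1.8% of all promoters, in 3.52% of tested genes with a promoter, in 4.73% of genes lower against 5 and in 3.32% of genes higher. Matches in capitals shared no bases with the other motifs searched in any printed promoter.

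**Figure D4:**
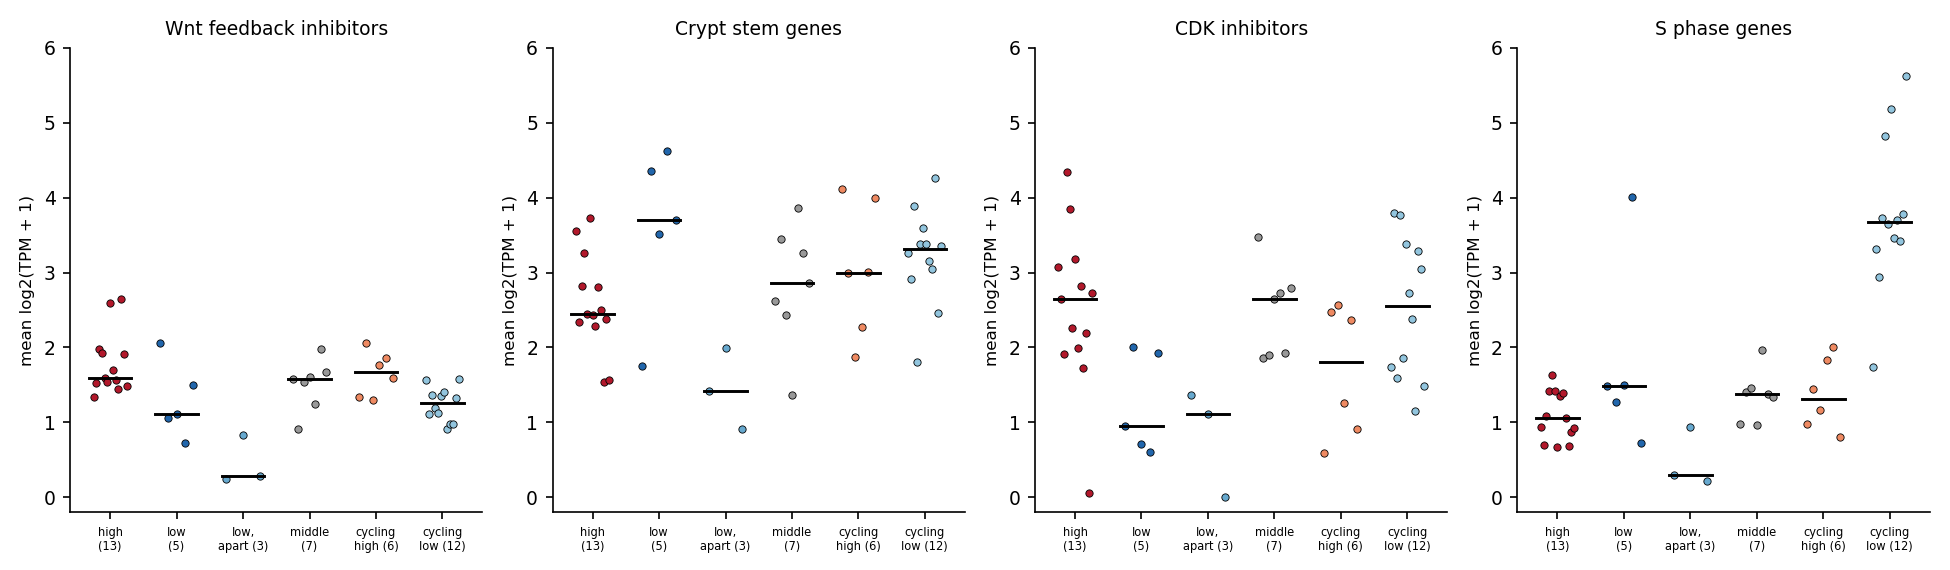
Mean log2(TPM + 1) over the listed genes of 4 lists in each cell, with 1 point per cell and a bar at the group median. Cell N708-N508 is the Prox1-low cell at 4.01 among the S phase genes, where the other 4 lie between 0.73 and 1.5.

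Several lists were higher against 8 cells only through the cells with few genes. Of all genes 30.3% were higher against 8 and 15% against 5. Of 14 respiratory chain genes 8 were higher against 8 and 0 against 5. Heat shock and chaperone genes went from 7 of 10 to 1 of 10, immediate early genes from 8 of 16 to 0 of 16, and genes of growth chromatin and tubulin from 7 of 12 to 1 of 12. Ribosomal protein genes went from 53 of 88 to 3 of 88. Those 5 lists had medians between -0.21 and 0.03 against 5, near the 0.05 of all genes. Of 16 genes linked to slow cycling 7 were higher and 0 lower against 8, and 5 were higher and 1 lower against 5. Their median against 5 was -0.13, with 7 of the 16 above 0. Within i5 N507 and N508, where all genes had -0.097, their median was 0.62 with 6 higher and 0 lower. Among them Ypel3 had a median of 107 TPM in Prox1-high cells against 0, 0, 0, 193 and 196 TPM, and Bmi1, a Polycomb gene, was seen in 8 of 13 and in 1 of the 5.

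**Figure D5:**
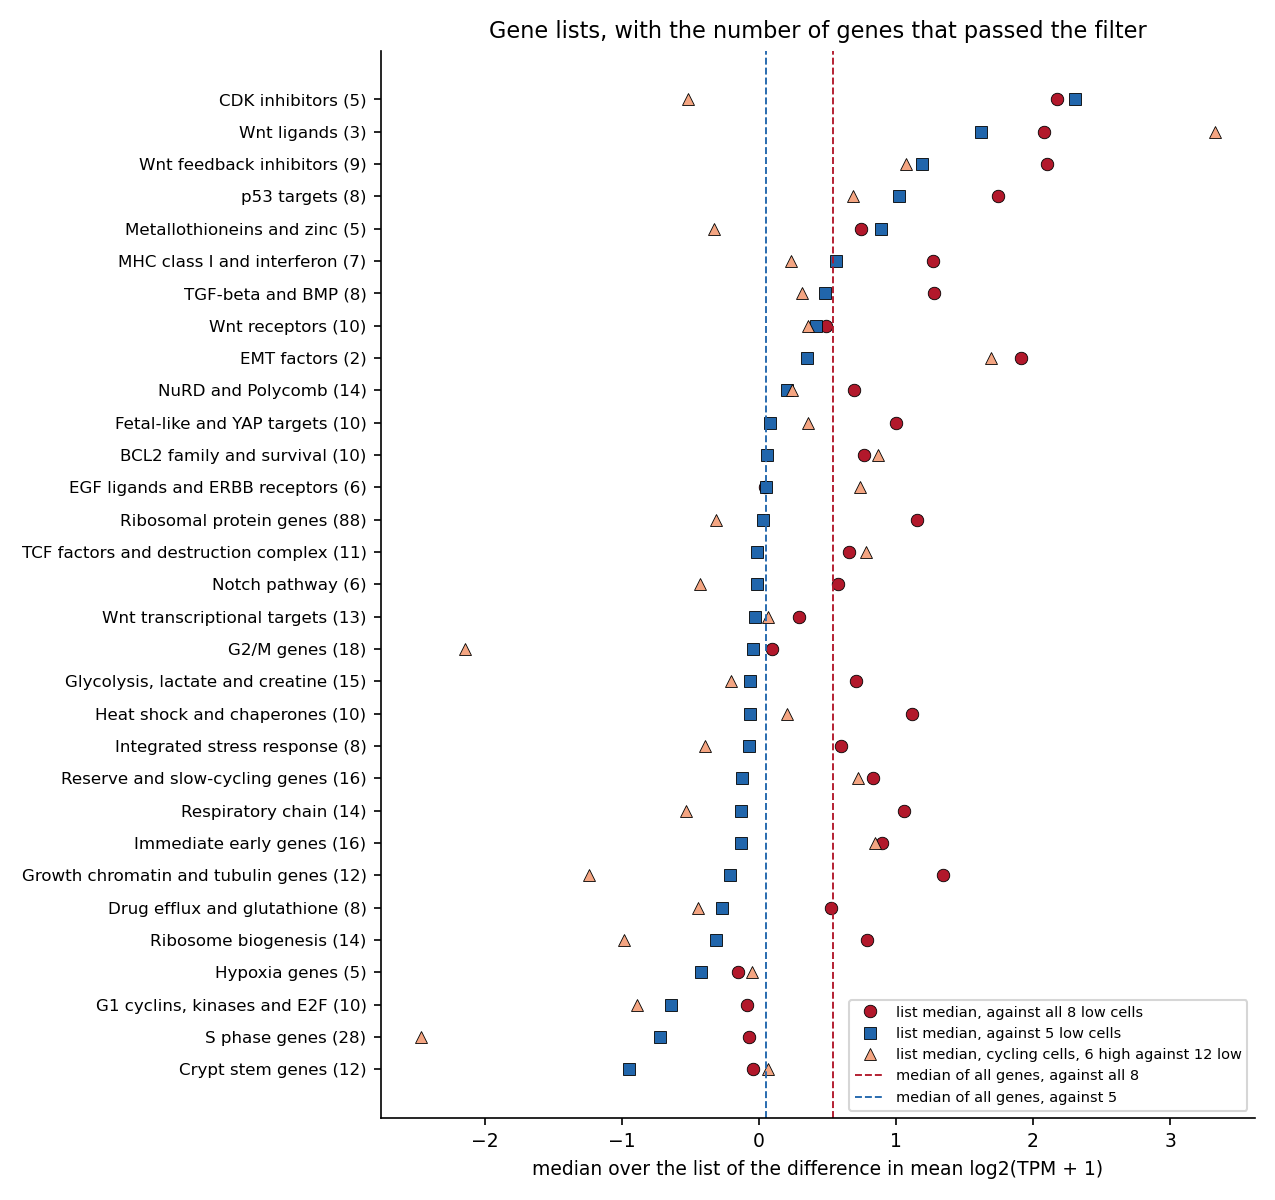
Median over each list of the difference in mean log2(TPM + 1), against all 8 Prox1-low cells (circles), against 5 (squares) and in cycling cells (triangles), with the number of genes that passed the filter in brackets and dashed lines at the median of all genes, 0.54 and 0.05. Respiratory chain genes move from 1.06 to -0.13 between the first 2, while CDK inhibitors stay at 2.17 and 2.31.

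Genes of a fetal-like, regenerating epithelium were split. Of 10 that passed the filter 5 were higher and 2 lower against 8, beside 30.3% and 4.42% of all genes. Against 5, 1 was higher and 4 lower, beside 15% and 12.9% of all genes. Ly6a, the surface antigen Sca-1, was listed at 0 in all 13 Prox1-high cells and in all 6 cycling Prox1-high cells. It was at 0, 0.96, 0.98, 72.3 and 956 TPM in the 5 Prox1-low cells and at 1640.05 TPM in cell N707-N503. Gpx2, a glutathione peroxidase of the gut, belongs to another list, that of drug efflux and glutathione genes. It had a median of 645 TPM in Prox1-high cells and was at 899, 1690.3, 2016, 2196 and 2481 TPM in the 5, a difference of -2.57.

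The part of other cell types in the differences was not tested, and the summed levels of their markers were as follows. Of 11 colonocyte markers 3 passed the filter, with sums of up to 21.99 TPM in Prox1-high cells and up to 25.4 TPM in the 5 Prox1-low cells. Of those 3, 0 were higher and 1 lower against 5, beside 15% and 12.9% of all genes. Of 11 general epithelial markers that passed, 0 were higher and 3 lower against 5, beside the same shares, with a median of -0.41. Of 16 enteroendocrine markers 2 passed the filter, with a summed level of 24.9 to 144 TPM in Prox1-high cells and 46.2 to 129 TPM in the 5 Prox1-low cells. Of 12 tuft cell markers 2 passed, with sums of 0.36 to 150.5 TPM and 33 to 256 TPM. Of 11 goblet cell markers 2 passed, with sums of up to 151 TPM and up to 74.9 TPM. The 8 fibroblast markers summed to at most 31.5 TPM and 148 TPM, and the 13 immune markers to at most 13.6 TPM and 114 TPM. Paneth markers summed to 669.5 to 5459 TPM in Prox1-high cells and 949.5 to 4195 TPM in the 5, and Pla2g2a, a secreted phospholipase, alone was at 160 to 5458 TPM and 470.1 to 3787 TPM. In cell N704-N517 that sum was 293120 TPM.

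Cycling cells gave no value to the differences that ranked the genes, though they came from the same mouse and counted in the filter on level. Between 6 cycling Prox1-high and 12 cycling Prox1-low cells 1253 of the 9166 genes were higher (13.7%) and 1487 lower (16.2%). Of the 1378 genes higher against 5 outside the cycle, 318 were also higher there, which is 23.1% of the first list and 25.4% of the second. Of the 1179 lower, 328 were also lower there, which is 27.8% and 22.1%. Of the 15 highest genes 9 were higher by 1 or more in cycling cells and 2 lower by as much, and of the 15 lowest 10 were lower and 1 higher. Mt3, with medians of 247 and 0 TPM, and Ckmt1, with medians of 0 and 62.0 TPM, had the widest differences of these 30 genes, at 5.73 and -5.03. The cycling groups also differed in proliferation itself, since Mki67 had a median of 3.19 TPM with Prox1 high and 24.6 TPM with Prox1 low. Of 28 S phase genes 26 were lower with Prox1 high there, and the part of that in the other genes was not tested.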

How the data were processed

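Single-cell RNA-seq libraries of 1 ApcMin/+ mouse were analysed as TPM values deposited by the authors, 56 libraries in 1 table of 24410 genes. Per the submitters' processing notes the tools were bcl2fastq 1.8.4, Bowtie2 2.2.9 and RSEM 1.2.31 with the build GRCm38.p4. No source used here states the annotation, the settings or the use of strand. TPM keeps no depth, so the depth of each library is unknown and no counting interval is given.

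In 6 pairs, libraries correlated at Pearson r of 0.957 or more (the next pair had 0.782) and were averaged, which left 50 cells. The 9166 genes that reached 1 TPM in at least 20% of the cells were kept. All 50 cells counted there, so a gene seen chiefly in 1 group could pass through that group. Differences are between mean log2(TPM + 1) values, with a pseudocount of 1 TPM, and 1 was the size counted. The SD is over cells. No test was run, since all cells came from 1 mouse. Cells are named by index pair.

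The 15 highest and 15 lowest genes passed the filter, differed by 1 or more in mean and median against all 8, and kept their sign within i7 N704 to N707, i5 N502 to N505 and i5 N506 to N517. In i5 N502 to N505, 9 Prox1-high cells stood against 2 Prox1-low cells, both among the 3 set apart. The rule also named i7 N708 to N710, which held no Prox1-high cell and could not be applied. The other genes named belong to the 42 lists. Members and lists were chosen with earlier results of these data known. Of the gene IDs, 24235 were given names, and coordinates and promoters are from the reference tables for GRCm38. Alternatives were other pseudocounts, filters, Prox1 limits, scalings, index subsets and leaving out each cell, and 4 more were chosen after seeing the data. Calculations used Python 3.11.15, numpy 2.4.6, pandas 2.3.3 and matplotlib 3.10.9. Only the difference of means was checked, with shifts planted in shuffled values, and that check covers no other step.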

Additional observations from a re-analysis of the deposited data

Results flagged for a closer look

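Within a group of 4 to 10 cells, a value was picked out when its gap to the nearest other cell was wide for the range of the group, which chance gives for about 1 in 20 groups. Among the 8 Prox1-low cells, N707-N503 had Prox1 at 9.03 TPM while the others were at 1.43 TPM or less. That group was made by a Prox1 limit of 10 TPM, so the rate of 1 in 20 does not hold for this value. Cell N708-N503 had 85.1% of its TPM on Gm10925, against at most 20.7% in the others. Cell N704-N517 had 76.0% on defensin genes, against at most 0.179% in the others. Cell N708-N508 had a mean level of S phase genes of 4.01, against at most 1.5, both among the 8 and among the 5. Among the 5, cell N707-N508 stood out with 0.179% of its TPM on defensin genes, against at most 0.0205%. Outside the 21 cells compared, N709-N502 with intermediate Prox1 had 26.3% on Gm10925, and cycling Prox1-high cell N709-N503 had 7234 genes at 1 TPM or more, against at most 6060 in its group.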

How the results depend on the processing

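There were 2779 genes higher and 405 genes lower by 1 or more. With a pseudocount of 0.1 TPM they were 4422 and 878, and with 10 TPM 830 and 96. Median-of-ratios scaling gave 1723 and 808, no cycle filter 1118 and 611, and i5 N502 to N505 alone 5578 and 727. Within i5 N502 to N505 the only Prox1-low cells were 2 of the 3 set apart, here and in every value below. Prox1 limits of 15 TPM gave 1723 higher. The count lower was 216 with a filter of 50% of cells, 711 within i7 N704 to N707, 1325 within i5 N506 to N517 and 659 without cells under 3000 genes. Leaving out 1 cell gave 2018 to 3237 higher and 390 to 659 lower, with 659 without cell N708-N503. Alternatives chosen after seeing the data gave 1378 and 1179 without the 3 cells set apart, 1662 and 2132 within i5 N507 and N508, 1259 and 1146 with median-of-ratios scaling, and 1505 and 1317 without cell N708-N508 as well. The mean level of Wnt feedback inhibitors differed by 0.81, from 0.71 to 0.97 with 1 cell left out, by 1.36 within i5 N502 to N505 and by 0.19 within i5 N507 and N508. That of S phase genes differed by -0.22, from -0.37 to 0.17 with 1 cell left out, and by -1.61 with no cycle filter. The 30 named genes had been chosen with the same sign in mean and median. Their sign also had to hold within i7 N704 to N707, i5 N502 to N505 and i5 N506 to N517. Kept direction in those settings was thus fixed in advance, and leaving out 1 cell reused the cells that ranked them. Of the 30 named genes 28 kept their direction in every setting, and Vim (-0.00109) and Defa20 (0.29) turned within i5 N507 and N508. The causes were not tested. i7 N708 to N710 alone could give no value, since it held no Prox1-high cell. No paired analysis was possible because the groups are cells of 1 mouse that share no replicate number.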
